A study of Mus musculus with 20 samples.

Results

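The microglia genes described here are Aif1, Itgam, Cx3cr1, P2ry12, Tmem119, Csf1r, Cd68, Trem2, Tyrobp and C1qa, 10 genes by which resident macrophages of the brain are usually recognised. Their probes were found by the RefSeq accession printed beside each probe on the array, without its version. This gave 15 of the 55681 probes on the array. They covered 9 of the 10 genes, because no probe carried an accession of Cd68. Itgam, Cx3cr1 and Csf1r had 3 probes each, and the other genes had 1.

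The data were 20 one-colour Agilent arrays, each of the brain RNA of 1 male mouse of C57BL/6J background, in 4 groups of 5 mice. All mice carried a GFAP promoter-controlled Tet-binding protein, which places the switch for the transgene in astrocytes and not in microglia. Tat+ mice also carried HIV-1 Tat behind a TRE promoter, and Tat- mice lacked it. Every mouse of every group, controls included, received doxycycline at 100 mg/kg for 7 days. The Tat-/Meth and Tat+/Meth groups received methamphetamine (Meth) at 2 mg/kg on 7 days, and the Tat-/Sal and Tat+/Sal groups received saline. The labels give the left hemisphere of perfused brain, an age of 6-7 weeks and harvest 24 h after the last injection. The methods name the caudate-putamen, an age of 3-5 months, 7 days without drug, and then a Meth challenge of 1 mg/kg in all mice 1 h before harvest. By the methods, the saline groups had therefore also met Meth once. All 8 striatal neuron genes on the list used here were well above background on all 20 arrays.

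Microglia are the resident macrophages of the brain parenchyma. They survey the tissue, take up debris and synapses tagged by complement, and need signals through the CSF1 receptor to survive. P2ry12 (a purinergic receptor for ADP), Tmem119 (a membrane protein) and Cx3cr1 (the receptor of neuronal fractalkine) are read as genes of surveying microglia. Trem2 is a lipid-sensing receptor that signals through the adaptor Tyrobp, C1qa is a chain of the complement starter C1q, Itgam (CD11b) is the alpha chain of complement receptor 3, and Aif1 encodes the actin-binding protein Iba1. In whole-tissue RNA such as this, fewer microglia and less RNA of a gene in each microglial cell cannot be told apart.

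The promoter windows of 3 of these genes are shown because Trem2 and Aif1 varied together among mice of the same group and slide (r = 0.69), while P2ry12 differed between groups in the direction opposite to Trem2. Each window holds 250 bases before and 50 bases from the start of the gene in RefSeq's GRCm38.p6 annotation, written in the direction of the gene. Capitals mark GAGGAA or its reverse complement TTCCTC, the core of the PU box bound by the myeloid factor PU.1.
Trem2, chr17:48346151-48346450, plus strand: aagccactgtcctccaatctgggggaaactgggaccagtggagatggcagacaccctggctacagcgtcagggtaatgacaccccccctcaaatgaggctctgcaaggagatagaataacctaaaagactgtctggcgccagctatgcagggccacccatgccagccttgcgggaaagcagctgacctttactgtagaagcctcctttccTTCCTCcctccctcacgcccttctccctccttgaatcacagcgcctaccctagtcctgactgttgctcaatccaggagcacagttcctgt
Aif1, chr17:35176003-35176302, minus strand: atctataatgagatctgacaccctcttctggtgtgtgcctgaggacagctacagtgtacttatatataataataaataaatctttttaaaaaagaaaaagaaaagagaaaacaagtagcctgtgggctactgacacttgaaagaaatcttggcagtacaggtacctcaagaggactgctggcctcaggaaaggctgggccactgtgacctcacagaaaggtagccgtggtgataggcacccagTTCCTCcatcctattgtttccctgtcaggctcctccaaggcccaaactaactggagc
P2ry12, chr3:59262936-59263235, minus strand: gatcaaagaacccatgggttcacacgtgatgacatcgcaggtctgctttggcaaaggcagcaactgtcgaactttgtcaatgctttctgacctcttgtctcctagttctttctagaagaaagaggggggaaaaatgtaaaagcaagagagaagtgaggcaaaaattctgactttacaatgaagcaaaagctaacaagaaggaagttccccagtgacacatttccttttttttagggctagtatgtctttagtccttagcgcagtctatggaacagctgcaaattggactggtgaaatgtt
The Trem2 window held the reverse complement once, at position -40 from the start, and the Aif1 window held it once, at position -7. The P2ry12 window held neither form. Of the 10 genes, 6 had a window in the RefSeq table, and 4 of these (Aif1, Itgam, Cd68 and Trem2) held the motif on either strand. The Itgam window, not shown, held 3 matches, at positions -84, -15 and 33. For Tat-/Meth vs. Tat-/Sal, genes with the motif had log2 fold changes of 0.29 (Trem2), -0.05 (Aif1) and -1.07 (Itgam, brightest probe). Genes without it had -0.35 (P2ry12) and 0.20 (Cx3cr1, brightest probe). Whether the motif goes with the direction of change was not tested. Among all 32851 windows of the same length, 28.3% held it. A match describes these letters and is not a binding site. The probe of Spi1, the gene of PU.1 itself, was well above background on 0 of 20 arrays.

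All 15 probes of the 9 measured microglia genes were well above background on all 20 arrays and entered the tests, with 31516 of the array's probes tested in all. Values are log2 signals after scaling every array on its 75th percentile, so 1 unit is a doubling, and a probe's level is compared only with itself in other groups. Where a gene is counted once, its brightest probe stands for it. A probe or gene passed where limma's p, adjusted by Benjamini-Hochberg over all probes tested, was under 0.05. The arrays lay on 3 slides. Slide 1 held the 5 Tat-/Meth arrays and nothing else, slide 2 the Tat-/Sal arrays with Tat+/Meth replicates 1 to 3, and slide 3 the Tat+/Sal arrays with Tat+/Meth replicates 4 and 5. The bright control spots at the array corners read 14.7 to 15.1 (unscaled log2) on slide 1 and 16.8 to 17.4 on the other two. For every comparison with Tat-/Meth, slide and group cannot be told apart.

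**Figure D1:**
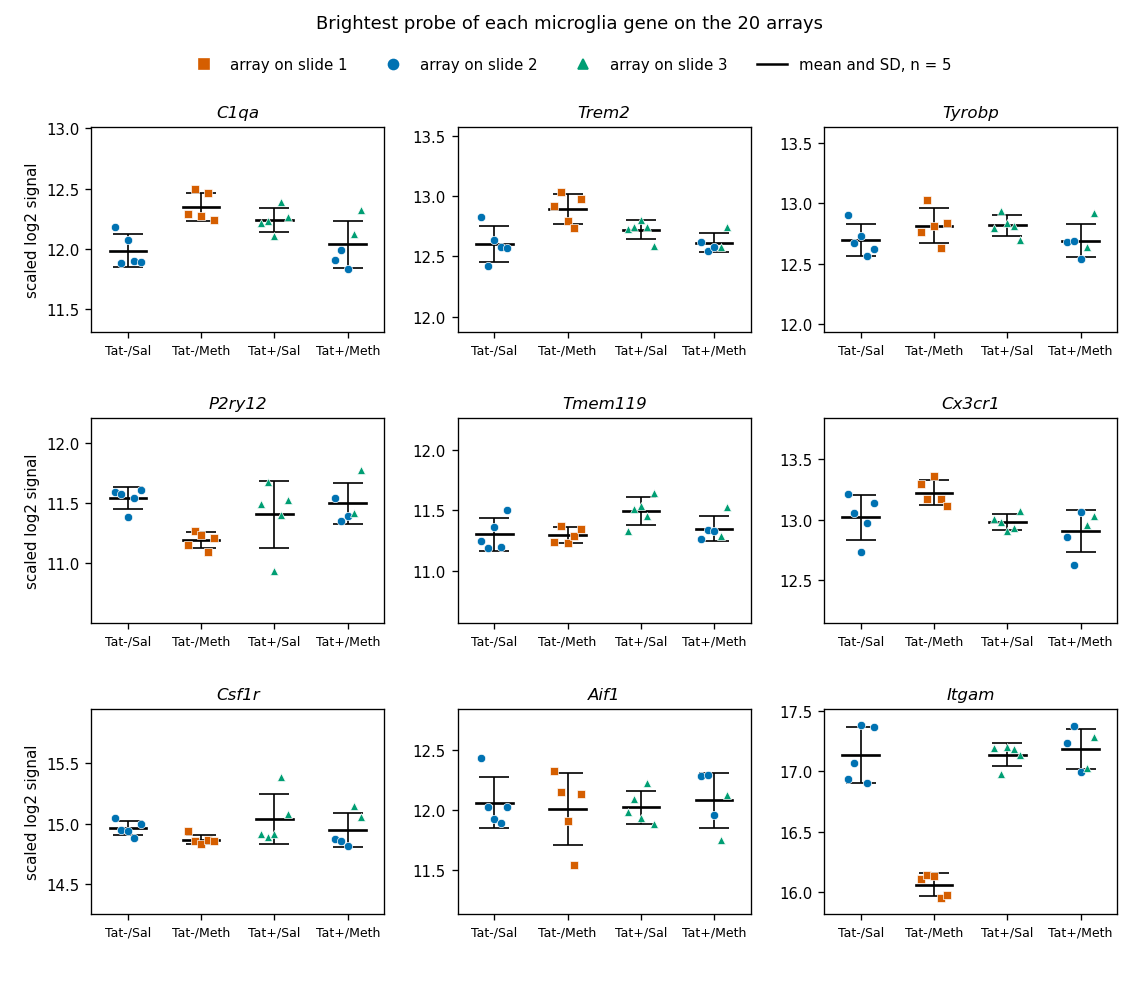
Scaled log2 signal (y axis) of the brightest probe of each measured microglia gene in the 4 groups (x axis). Points are arrays with the symbol of their slide, bars are the mean and SD of 5 arrays. Itgam, P2ry12, C1qa and Trem2 are the genes that passed in Tat-/Meth vs. Tat-/Sal, though the Trem2 arrays of these groups overlapped.

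How repeated Meth moved these genes in mice without Tat was read from Tat-/Meth vs. Tat-/Sal. The microglia genes did not move as a block. C1qa and Trem2 were higher in Tat-/Meth by 1.29-fold and 1.22-fold, P2ry12 was lower by 1.27-fold, and the brightest Itgam probe was lower by 2.10-fold. Tyrobp, Tmem119, Cx3cr1, Csf1r and Aif1 did not pass. The direction of C1qa and Trem2 depends on the scaling, since their unscaled differences were -0.06 and -0.14 where the median of all probes was -0.33. When arrays were scaled to their medians, which put the median of all probes at 0.22, only Itgam passed. The share of all probes that passed under that scaling is not given here. Adjusted p in limma was then 0.0503 for C1qa, 0.0537 for Trem2 and 0.343 for P2ry12. Thus 4 of 9 genes passed, 2 in each direction, where 50.3% of all probes tested passed (28.1% higher and 22.2% lower). The median log2 fold change of the 9 genes was -0.0045 beside 0.10 over all probes, so the share that passed was near that of the whole array.

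C1qa was the most regular of the genes that were higher. In Tat-/Sal mice its signal was 12.18, 11.89, 12.08, 11.90 and 11.89 (replicates 1 to 5), and in Tat-/Meth mice it was 12.29, 12.49, 12.27, 12.46 and 12.24. The lowest array with Meth was above the highest with saline. The log2 fold change was 0.36 (SE 0.09, 95% interval 0.17 to 0.55, adjusted p = 0.00273). The Tat+/Sal arrays, on slide 3, lay between at 12.22, 12.23, 12.11, 12.39 and 12.26. The Tat+/Meth group was split by slide, with 11.91, 12.00 and 11.83 on slide 2 and 12.13 and 12.33 on slide 3, a difference of -0.31 between the slides' means. Mean C1qa levels thus ran from Tat-/Sal (11.99) through Tat+/Meth (12.04) and Tat+/Sal (12.24) to Tat-/Meth (12.35). The step between Tat-/Sal and Tat+/Meth did not pass (log2 fold change 0.05, SE 0.09, adjusted p = 0.924). The part of the slide in the C1qa difference was not tested.

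Trem2 was 12.83, 12.42, 12.64, 12.58 and 12.57 in Tat-/Sal and 12.92, 13.03, 12.80, 12.73 and 12.98 in Tat-/Meth. After Meth, 3 arrays exceeded the whole saline group, and the other two fell below the highest of them, replicate 1. The log2 fold change was 0.29 (SE 0.07, 95% interval 0.13 to 0.44, adjusted p = 0.00386). Its adaptor Tyrobp overlapped between the groups, with 12.56 to 12.90 in Tat-/Sal and 12.63 to 13.03 in Tat-/Meth. The Tyrobp difference of 0.12 (SE 0.08, adjusted p = 0.256) did not pass, and its interval of -0.06 to 0.29 held the Trem2 value.

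P2ry12 went the other way. Its signal was 11.59, 11.57, 11.38, 11.54 and 11.61 in Tat-/Sal and 11.15, 11.27, 11.23, 11.10 and 11.21 in Tat-/Meth, and the groups did not overlap. The log2 fold change was -0.35 (SE 0.11, 95% interval -0.58 to -0.12, adjusted p = 0.0128). Tmem119, usually read beside P2ry12, had means of 11.30 (SD 0.14, n = 5) and 11.29 (SD 0.06, n = 5) in Tat-/Sal and Tat-/Meth. Its difference was -0.0045 with an interval of -0.16 to 0.15. Cx3cr1 was higher in Tat-/Meth by 0.20 at its brightest probe without passing (SE 0.09, adjusted p = 0.0727), and its other probes differed by 0.08 and -0.0067. Aif1 spread most among mice, from 11.54 to 12.32 in Tat-/Meth and 11.90 to 12.43 in Tat-/Sal, and differed by -0.05 (SE 0.14, adjusted p = 0.778).

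The groups did not overlap at the brightest probe for C1qa, P2ry12 and Itgam, 3 of 9 genes, where 36.6% of all probes did not overlap. Itgam gave the largest difference of the microglia genes. Its brightest probe read 16.93, 17.07, 17.39, 16.90 and 17.37 in Tat-/Sal and 16.11, 16.14, 16.14, 15.95 and 15.98 in Tat-/Meth. Every Tat-/Meth array lay below every array of the other groups, with a log2 fold change of -1.07 (SE 0.10, adjusted p = 7.21e-08). Only this gene passed above 2-fold, where 11.6% of all probes did. The other Itgam probes, with means of 7.79 and 6.42 over all arrays, did not repeat it closely. The former differed by -0.02 (SE 0.17, adjusted p = 0.923), and the latter by -0.85 (SE 0.34, adjusted p = 0.0451) with 7.34 in Tat-/Meth replicate 5 against 5.44 to 6.09 in the rest of that group. Among mice of the same group and slide, the brightest probe did not vary with the other two (r of -0.08 and -0.12 over 20 arrays), which varied with each other (r = 0.61). Of the 427 probes within 0.5 log2 units of its level, 67.4% were lower in Tat-/Meth, with a median of -0.12. The part of the slide in the Itgam difference was not tested.

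**Figure D2:**
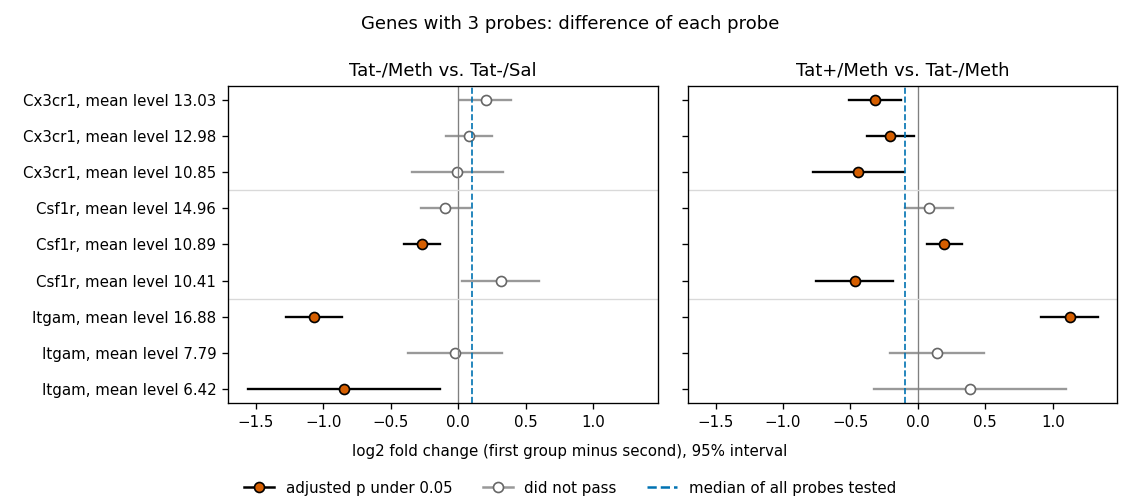
Log2 fold change with its 95% interval (x axis) of each probe of Cx3cr1, Csf1r and Itgam (y axis, with the probe's mean level) in the comparisons with Tat-/Meth. Filled points passed at adjusted p under 0.05, and the dashed line is the median of all probes. Probes of Csf1r lay on both sides of 0, and the Itgam probes ran from -1.07 to -0.02 in Tat-/Meth vs. Tat-/Sal.

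Csf1r, the receptor on which microglial survival rests, gave no common direction across its probes. The brightest, at 14.83 to 14.94 in Tat-/Meth and 14.88 to 15.05 in Tat-/Sal, differed by -0.10 (SE 0.09, adjusted p = 0.363). The probe with a mean of 10.89 was lower in Tat-/Meth, at 10.66 to 10.78 against 10.91 to 11.06, by -0.27 (SE 0.06, adjusted p = 0.00178). The probe with a mean of 10.41 was higher in all 5 Tat-/Meth arrays, at 10.52 to 10.79 against 10.06 to 10.51, by 0.31 (SE 0.14), and narrowly missed the threshold (adjusted p = 0.0645). Among mice of the same group and slide these opposed probes varied together (r = 0.62), and the brightest had r of 0.58 with the probe of mean 10.89 and 0.26 with the other. By probes rather than genes, 6 of 15 passed in Tat-/Meth vs. Tat-/Sal, 2 higher and 4 lower. Of all probes, 50.3% passed, 28.1% higher and 22.2% lower.

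Tat+/Meth vs. Tat-/Meth asks how Tat moved the same genes in mice given Meth. Here 5 of 9 genes passed, 2 higher and 3 lower, beside 53.5% of all probes (23.2% higher and 30.3% lower). C1qa (log2 fold change -0.31, SE 0.09, adjusted p = 0.00724), Trem2 (-0.28, SE 0.07, adjusted p = 0.00421) and Cx3cr1 (-0.32, SE 0.09, adjusted p = 0.00692) were lower in Tat+/Meth. P2ry12 (0.30, SE 0.11, adjusted p = 0.025) and Itgam (1.12, SE 0.10, adjusted p = 3.55e-08, brightest probe) were higher. The other Itgam probes differed by 0.14 (adjusted p = 0.487) and 0.39 (adjusted p = 0.352) and did not pass. Without scaling, where the median of all probes was 0.25, C1qa, Trem2 and Cx3cr1 differed by 0.03, 0.06 and 0.02. The P2ry12 call was lost without Tat-/Meth replicate 4 (0.28, adjusted p = 0.0561) or Tat+/Meth replicate 5 (0.24, adjusted p = 0.0769), and under median scaling (0.15, adjusted p = 0.53). This comparison shares its Tat-/Meth arrays with the one above, so the opposite signs of C1qa, Trem2, P2ry12 and Itgam are not a separate observation.

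For Cx3cr1, the arrays read 12.86, 12.62, 13.06, 12.96 and 13.03 in Tat+/Meth against 13.30, 13.17, 13.36, 13.17 and 13.11 in Tat-/Meth, with no overlap. The other Cx3cr1 probes were also lower in Tat+/Meth, by -0.20 (adjusted p = 0.0439) and -0.44 (adjusted p = 0.0286). All 3 probes thus passed in 1 direction. Both bright probes varied together among mice of the same group and slide (r = 0.92), so they are not separate readings. At the probe with -0.44, Tat-/Meth replicate 2 was 11.57 where the others of its group ended at 10.88. P2ry12 in Tat+/Meth was 11.54, 11.35, 11.39, 11.42 and 11.77, each above every Tat-/Meth array. Trem2 in Tat+/Meth was 12.62, 12.55, 12.58, 12.58 and 12.74, of which only replicate 5 reached the lowest Tat-/Meth array (12.73). The median over the 9 genes was 0.05, beside -0.09 over all probes. Csf1r again split, with the probe of mean 10.89 higher by 0.20 (adjusted p = 0.0139) and the probe of mean 10.41 lower by -0.47 (adjusted p = 0.00776). Without overlap between the groups stood 3 of 9 genes at their brightest probes, beside 37.2% of all probes.

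The interaction, the Meth difference in Tat+ mice minus that in Tat- mice, passed for 4 of 9 genes, beside 37.0% of all probes. It was -0.57 for C1qa (SE 0.13, adjusted p = 0.00188) and -0.39 for Trem2 (SE 0.11, adjusted p = 0.00658). It was 0.44 for P2ry12 (SE 0.15, adjusted p = 0.0317) and 1.12 for Itgam (SE 0.14, adjusted p = 6.3e-06). It rests on the same Tat-/Meth arrays as both comparisons above. Without scaling it was 0.09 for Trem2 (adjusted p = 0.664) and -0.08 for C1qa (adjusted p = 0.747). The P2ry12 call was lost when Tat-/Meth replicate 1 or 4, Tat-/Sal replicate 1 or 5, or Tat+/Meth replicate 1 or 5 was left out, with adjusted p of 0.0503 to 0.0589.

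**Figure D3:**
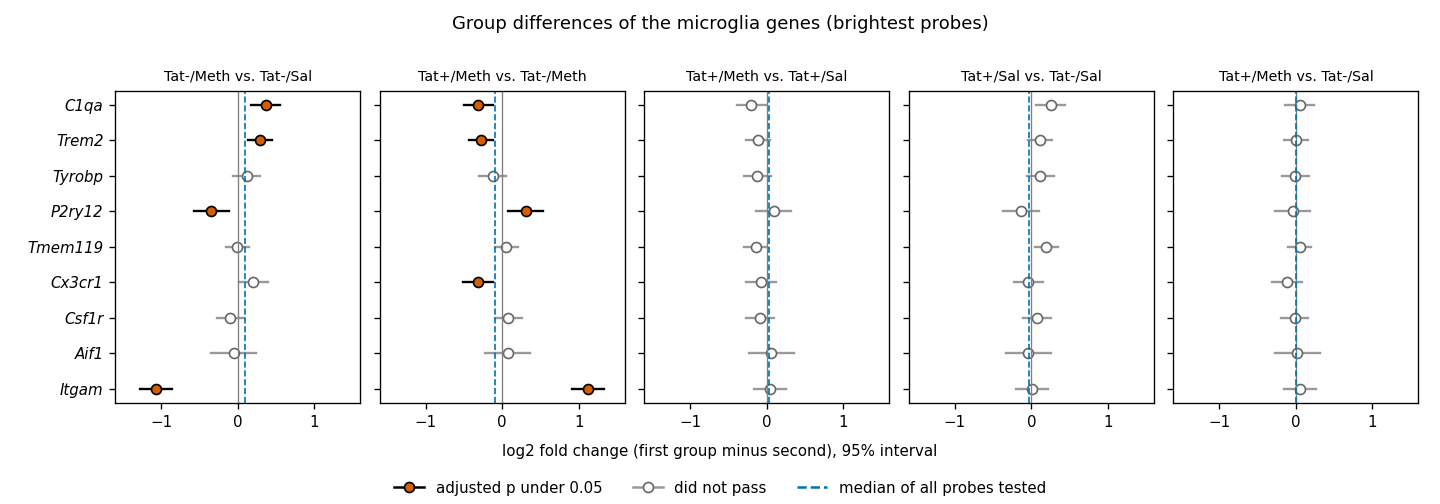
Log2 fold change with its 95% interval (x axis) of the brightest probe of the 9 measured microglia genes (y axis) in the 5 comparisons of groups. Filled points passed at adjusted p under 0.05, and the dashed line is the median of all probes tested. Filled points appear only in the comparisons with Tat-/Meth, 4 in one and 5 in the other, where 50.3% and 53.5% of all probes passed.

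In the comparisons without Tat-/Meth, none of the 9 genes passed. For Tat+/Meth vs. Tat+/Sal, the Meth difference in mice with Tat, 0.0% of all probes passed in limma, and 1 of the 9 genes (C1qa) had an unadjusted p under 0.05, beside 11.5% of all probes. C1qa differed by -0.20 (SE 0.09, adjusted p = 0.405), but by -0.02 among the arrays of slide 3, where both groups were present. P2ry12, 11.50, 11.68, 10.94, 11.40 and 11.52 in Tat+/Sal, differed by 0.09 with an interval of -0.14 to 0.32, and by 0.19 within slide 3. Trem2 differed by -0.11 (interval -0.27 to 0.05) and Itgam by 0.05 (interval -0.16 to 0.26) at its brightest probe. The Itgam interval does not reach the difference seen between the Tat- groups.

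For Tat+/Sal vs. Tat-/Sal, the Tat difference in mice given saline, 0.708% of all probes passed and 2 of the 9 genes had an unadjusted p under 0.05, beside 16.6% of all probes. C1qa was 0.25 higher in Tat+/Sal (SE 0.09, adjusted p = 0.167), with 4 of 5 arrays higher than any array of Tat-/Sal. Tmem119 was 0.19 higher (SE 0.07, adjusted p = 0.187), at 11.33, 11.51, 11.54, 11.45 and 11.64 against 11.24, 11.19, 11.37, 11.19 and 11.51. These groups lie on slides 3 and 2, and with slide as a fixed block the differences were -0.06 for C1qa and 0.10 for Tmem119. With slide as a random block, whose estimated correlation was negative (-0.0586), both passed, at 0.30 (adjusted p = 0.0215) and 0.21 (adjusted p = 0.0369). For Tat+/Meth vs. Tat-/Sal, the 9 genes differed by -0.12 to 0.05 where 0.00317% of all probes passed, and 0 of the 9 had an unadjusted p under 0.05, beside 6.31% of all probes.

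Genes known to work with the microglia genes were read from lists of ligands, partners and signalling genes. Of 10 tested ligands and partners, 5 were higher and 0 lower in Tat-/Meth vs. Tat-/Sal, where 28.1% of all probes were higher and 50.3% passed. Their median was 0.32, whereas without scaling 4 were lower and 0 higher, with a median of -0.10. Leaving out the scaling moves every probe of the array by -0.42 in this comparison. Unscaled counts of any list therefore lean towards lower. Under median scaling 1 passed, and the share of all probes under that setting is not given. The ligands and partners included the other C1q chains, which are made in the same cells as C1qa and assemble with it. C1qb ran from 11.78 to 12.03 in Tat-/Meth and from 11.40 to 11.74 in Tat-/Sal, a log2 fold change of 0.35 (SE 0.09, adjusted p = 0.00361). C1qc ran from 12.97 to 13.19 and from 12.55 to 12.89, a log2 fold change of 0.32 (SE 0.09, adjusted p = 0.005). All 3 C1q chains were thus higher in every Tat-/Meth array than in every Tat-/Sal array. Of all probes, 36.6% did not overlap between these groups in 1 direction or the other. As for C1qa, the Tat+/Meth arrays of C1qb were lower on slide 2 than on slide 3, by -0.27, while C1qc differed by -0.09.

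Itgb2, the beta chain that pairs with Itgam, was higher in Tat-/Meth by 0.43 (SE 0.11, adjusted p = 0.00368), at 8.64 to 9.36 against 8.33 to 8.54, while the brightest Itgam probe was lower. Csf1, a ligand of the CSF1 receptor, was higher by 0.32 (SE 0.10, adjusted p = 0.0141), with 10.23 to 10.84 against 9.95 to 10.33, ranges that overlapped. In Tat+/Meth vs. Tat-/Meth, 6 of 10 ligands and partners passed, 5 lower and 1 higher, beside 53.5% of all probes (30.3% lower and 23.2% higher). The gene that was higher, named after its value was seen, was Cx3cl1, the ligand of Cx3cr1, at 0.21 (adjusted p = 0.0388).

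ITAM signalling is the path through which Tyrobp acts. Of 16 tested genes of complement, Fc receptors and ITAM signalling, 7 were higher and 0 lower in Tat-/Meth vs. Tat-/Sal. C1qb and C1qc are among the 7 and C3 is also on both lists, so this list is not separate from the ligands and partners. Without scaling, which moves every probe by -0.42, 5 of 17 were lower and 0 higher. With scaling, the median of the list was 0.28, beside 0.10 over all probes. Of all probes, 28.1% were higher and 50.3% passed. Fcgr3, a low-affinity Fc receptor, was 9.60 to 9.91 in Tat-/Meth and 8.84 to 9.19 in Tat-/Sal, a log2 fold change of 0.72 (adjusted p = 6.76e-05). Ptpn6, a phosphatase that dampens such signals, was 0.35 higher (adjusted p = 0.0096), and the kinase gene Fyn, which neurons also use, 0.34 higher (adjusted p = 5.55e-05). In Tat+/Meth vs. Tat-/Meth, 8 were lower and 1 was higher. Without scaling, which moves every probe there by 0.34, 4 were higher and 1 lower. With scaling, 30.3% of all probes were lower and 23.2% higher, 53.5% in all. Within the list Fcgr3 differed most, by -0.90 (adjusted p = 5.32e-06).

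Of 19 tested other genes of surveying microglia, 5 were higher and 3 lower in Tat-/Meth vs. Tat-/Sal, with a median of 0.12. Of all probes, 28.1% were higher and 22.2% lower. Without scaling, which moves every probe by -0.42, 1 gene of the list was higher and 10 were lower. Olfml3, a secreted matrix protein, was 0.99 higher (adjusted p = 0.00317) and Sall1, a transcription factor of microglial identity, 0.59 higher (adjusted p = 3.58e-06). Siglech, a sialic acid-binding lectin, differed by -1.69 (adjusted p = 1.78e-11) and Ltc4s, the leukotriene C4 synthase gene, by -0.72 (adjusted p = 0.00301). As with Itgam, the Siglech probe that was lower had a mean near the top of the scale (16.64), and the other Siglech probe (mean 10.89) differed by 0.16 (adjusted p = 0.112). The other Olfml3 probe differed by 0.23 (adjusted p = 0.166).

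**Figure D4:**
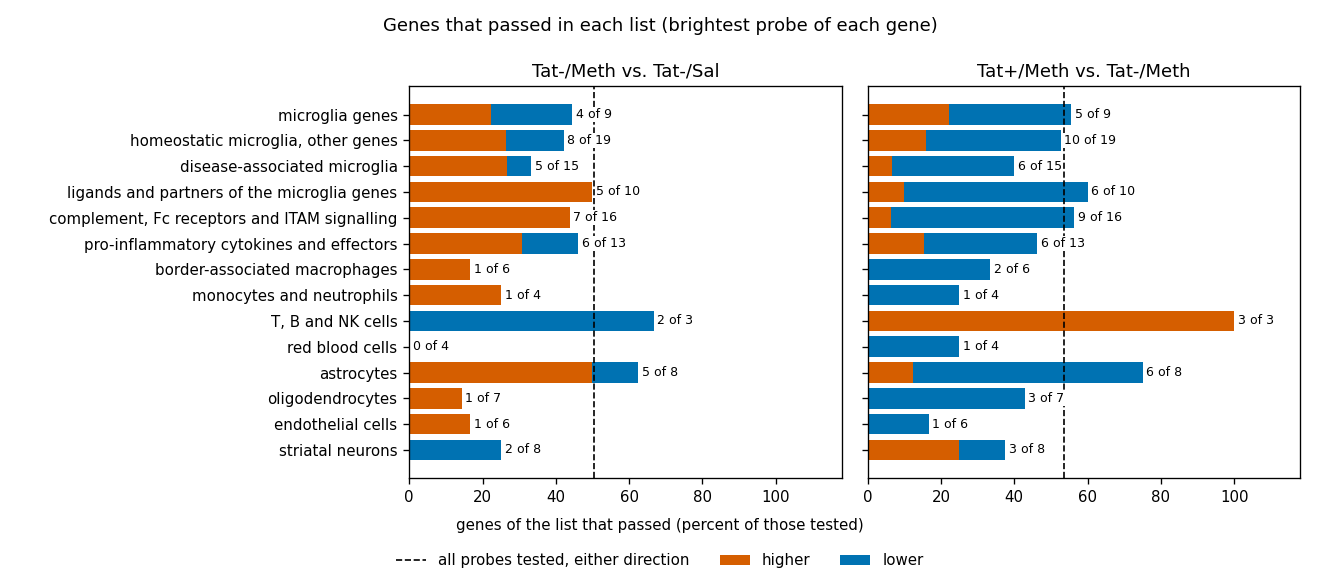
Percent of the tested genes of each list that passed (x axis), split into higher and lower, in the comparisons with Tat-/Meth, with the count beside each bar. The dashed line is the percent of all probes that passed. In Tat-/Meth vs. Tat-/Sal, 50.3% of all probes passed. By direction, 28.1% of all probes were higher and 22.2% lower. The genes of complement, Fc receptors and ITAM signalling that passed there were all higher, 7 of 16. Without scaling, the genes of that list that passed were lower instead. The microglia genes that passed were split.

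Genes that microglia raise around amyloid or dying cells gave 4 higher and 1 lower of 15 tested in Tat-/Meth vs. Tat-/Sal. Their median was 0.10. Without scaling, which moves every probe by -0.42, 0 were higher and 8 lower. Csf1, one of the 4, is also on the list of ligands and partners, as is Apoe. Beside this list and the next, 28.1% of all probes were higher and 22.2% lower, 50.3% in all. Cd9 (0.41), Ccl6 (0.40) and Axl (0.37) were higher, and Lgals3, galectin-3, differed by -1.19 (adjusted p = 0.014). Of 13 tested inflammatory genes, 4 were higher and 2 lower (0 and 2 without scaling), with Myd88 (0.63), an adaptor of Toll-like receptors, and Il18 (0.42) higher. Nos2, the inducible nitric oxide synthase gene, differed by -2.97 and Nlrp3, an inflammasome sensor, by -1.22. The probe of Tnf was well above background on 0 of 20 arrays. In the 3 comparisons without Tat-/Meth no gene of any of these lists passed.

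Markers of other cells that carry some of the same genes were read beside these results. Border-associated macrophages also express Aif1, Csf1r, Cx3cr1 and the C1q chains. Of 6 tested genes of these cells, 1 was higher and 0 lower in Tat-/Meth vs. Tat-/Sal. Beside this and the later lists of this paragraph, 28.1% of all probes were higher and 22.2% lower. In Tat+/Meth vs. Tat-/Meth, where C1qa, Trem2 and Cx3cr1 were lower, 2 of the 6 were lower, beside 30.3% of all probes. They were F13a1 by -0.80 (adjusted p = 0.00641, no overlap) and Stab1 by -0.24 (adjusted p = 0.00666). The mean level of the 5 that were well above background on all arrays ran from 7.75 to 8.10 in Tat-/Meth and from 7.74 to 8.02 in Tat-/Sal, and Cd163 was well above background on 0 of 20 arrays. Of 4 tested genes of monocytes and neutrophils, which express Itgam, 1 was higher, with mean levels over 3 genes of 7.64 to 9.63 and 7.55 to 8.36, and Ccr2 was well above background on 0 arrays. The gene was Camp, by 0.31 at its brightest probe and 0.09 (adjusted p = 0.583) at the other. The level of 9.63 was Tat-/Meth replicate 3, where S100a9 was 11.36 against 6.56 to 8.60 in the rest of the group and the haemoglobin gene Hba-a1 was also highest (16.49). Without that array 4 microglia genes passed in Tat-/Meth vs. Tat-/Sal. Of 3 tested lymphocyte genes, Cd4 (-2.18) and Cd3e (-0.88) were lower at their brightest probes. The other Cd4 probe (mean 7.76) differed by -0.02 (adjusted p = 0.916), and Cd8a and Ms4a1 were well above background on 0 of 20 arrays and Cd3d and Cd3g on 1.

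Of 8 astrocyte genes, from the cells that hold the Tet switch, 4 were higher and 1 lower in Tat-/Meth vs. Tat-/Sal. Gja1 differed by 0.84 and Aldoc by -0.36 (adjusted p = 0.00126). Gfap, Slc1a2 and Aqp4 did not pass at their brightest probes. Other probes of Gfap (0.79 and 0.88), Slc1a2 (0.79) and Aqp4 (0.44) passed, and the third Slc1a2 probe (0.29) did not. Without scaling, which moves every probe by -0.42, 1 of the 8 genes was higher and 1 lower. The mean level of the 8 genes, scaled, was 13.57 to 13.88 in Tat-/Meth against 13.43 to 13.48 in Tat-/Sal. Oligodendrocyte genes gave 1 of 7 and endothelial genes 1 of 6, all higher. Striatal neuron genes gave 2 of 8, all lower, and red blood cell genes 0 of 4. Beside each of these lists and the astrocyte genes, 28.1% of all probes were higher and 22.2% lower, 50.3% in all. Without scaling 6 of 7 oligodendrocyte and 6 of 8 striatal genes were lower, and with quantile normalization 3 of each were higher. The part of any other cell type in the differences of the microglia genes was not tested.

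How the microglia genes varied among mice treated alike was described from each array's deviation from the mean of its group and slide, over 20 arrays in 5 such sets. The deviations share each array's scaling and labelling, so Pearson's r is given as a description. Trem2 and its adaptor Tyrobp were the most alike of the 36 pairs (r = 0.77, Spearman's rho 0.75, and r = 0.79 without the 2 arrays farthest from the median of Trem2). In Tat-/Meth both were highest in replicate 2 (13.03 and 13.03) and lowest in replicate 4 (12.73 and 12.63), and in Tat-/Sal both were highest in replicate 1 (12.83 and 12.90). Aif1 followed Tyrobp (r = 0.73, or 0.57 without the 2 arrays farthest from the median of Aif1) and Trem2 (r = 0.69, or 0.50).

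The other genes were only loosely tied. The median of the 36 pairs was 0.14, and 28 pairs were above 0. The lowest pair was Itgam with Cx3cr1 (r = -0.38), which came to -0.02 without the 2 arrays farthest from the median of Cx3cr1. Both bright probes of Cx3cr1 varied together (r = 0.92), so those deviations were repeatable between probes, whereas the third Cx3cr1 probe followed neither (r of -0.13 and 0.07). The median SD within sets was 0.13 for the microglia genes and 0.19 for all genes.

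**Figure D5:**
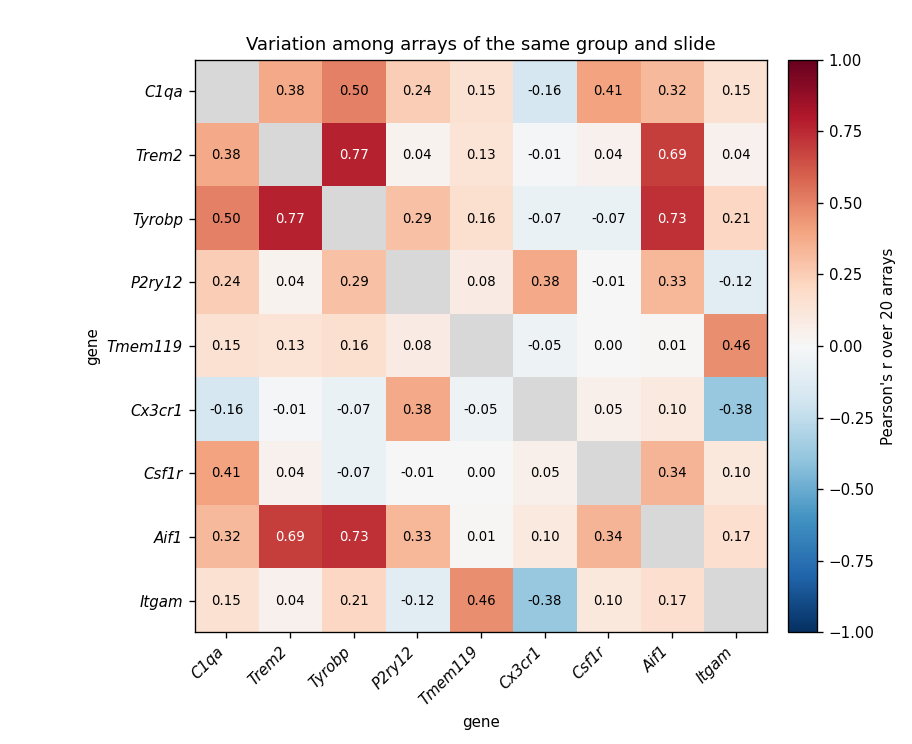
Pearson's r between the brightest probes of the 9 measured microglia genes (both axes), over the deviations of 20 arrays from the mean of their group and slide. Trem2, Tyrobp and Aif1 form the darkest block, with r of 0.69 to 0.77.

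Of 15045 genes ranked by r with the mean deviation of the 9 genes, the 8 most alike were Mpeg1 (0.88), Abhd4 (0.83), Ankrd13b (0.80), Daglb (0.79), Zfpm1 (0.77), Apom (0.77), Ndufb4 (0.76) and Sh3bgrl3 (0.76). Mpeg1 encodes perforin-2 of macrophages, and Daglb a lipase that makes the endocannabinoid 2-arachidonoylglycerol. The median r was 0.33 for the other genes of surveying microglia and 0.31 for those of complement, Fc receptors and ITAM signalling, beside 0.07 over all genes. It was 0.34 for oligodendrocyte genes, -0.0031 for astrocyte genes and -0.20 for red blood cell genes. The mean deviation of the 9 genes had r of -0.19 with the array's 75th percentile and 0.24 with the corner control spots.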

How the data were processed

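Total RNA of 20 mouse brains was hybridised to one-colour arrays, and the authors deposited 1 scanner file of intensity values per array (Agilent Feature Extraction, processed signal) and a series matrix of their processed intensity values. The labels name Cy3 and the methods Cy5, and the processed signal column was read. Spots marked as outliers and control spots were left out, log2 values of a probe's spots were averaged, and arrays were brought to a common 75th percentile (log2 intensity computed from the deposited signal). Probes with a mean of at least 6 in a group and 3 values per group were fitted on all 20 arrays with limma 3.58.1 in R 4.3.3 (lmFit, eBayes, two-sided, 1 mean per group) and adjusted by Benjamini-Hochberg. Tables and figures used Python with pandas and matplotlib. The code was tested on simulated data.

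The microglia genes and the 13 other lists were chosen with earlier results of these data known. Named were every probe of the 10 genes, up to 4 passed genes per list and comparison with the largest change, and the 8 genes most alike in variation. Replicate numbers did not pair the arrays: 9 of 30 pairs with the same number correlated above 0.1. The methods state that mice were housed in groups, but no source says which mice shared a cage or a litter. The number of arrays limits the precision. One gene of the lists is not reported here by name.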

Additional observations from a re-analysis of the deposited data

Results flagged for a closer look

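Among 60 groups of 5 arrays (15 probes in 4 groups), 3 arrays lay far from the rest of their group, a number that chance gives, since about 1 in 20 groups does so. Aif1 in Tat-/Sal replicate 1 was 12.43 where the other four ended at 12.03. The Cx3cr1 probe of mean 10.85 in Tat-/Meth replicate 2 was 11.57 where the others ended at 10.88, a jump the other Cx3cr1 probes did not show there (13.17 and 13.12, within their group's range). Tmem119 in Tat+/Meth replicate 5 was 11.52 where the others ended at 11.33.

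The interaction term in limma, the Meth difference in Tat+ mice minus that in Tat- mice, passed for 6 of the 15 probes, beside 37.0% of all probes. It was -0.57 for C1qa, -0.39 for Trem2, 0.44 for P2ry12 and 1.12 for the brightest Itgam probe. For Csf1r it was 0.27 at the probe of mean 10.89 (adjusted p = 0.0248) and -0.61 at the probe of mean 10.41 (adjusted p = 0.0192), so these probes of a single gene pointed in opposite directions. All 6 rest on the Tat-/Meth arrays, which lie alone on slide 1, and slide and group cannot be told apart there.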

How the results depend on the processing

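The number of microglia genes that passed was 4 in Tat-/Meth vs. Tat-/Sal, 5 in Tat+/Meth vs. Tat-/Meth, 4 in the interaction and 0 elsewhere. In these first 3, the shares of all probes were 50.3%, 53.5% and 37.0%. Over 20 alternatives, median scaling gave 1 for the first of these and 2 for the interaction. The share of all probes under median scaling is not given for either. These counts therefore do not show whether the microglia genes fell away more than the array. Slide as a random block, like the methods' t-test without adjustment, gave 2 in Tat+/Sal vs. Tat-/Sal. Asking for more than 2-fold left 1 in each of the first 3, Itgam, where 11.6% of all probes remained in the first. An adjusted p under 0.01 with more than 3-fold left 0. Without any single array the counts ran from 4 to 5, 4 to 5, 3 to 4 and 0. Replicate numbers did not pair the arrays, and with a replicate block the counts stayed 4, 5, 4 and 0.

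Leaving out the scaling moves every probe by the same amount, -0.42 in Tat-/Meth vs. Tat-/Sal, 0.34 in Tat+/Meth vs. Tat-/Meth and 0.49 in the interaction, which turned the sign of 21 of 54 values. Of these, 13 were past the threshold under neither setting. The other 8 were C1qa (-0.0575), Trem2 (-0.135) and Tyrobp (-0.30) in Tat-/Meth vs. Tat-/Sal, C1qa (0.0252), Trem2 (0.0591) and Cx3cr1 (0.0204) in Tat+/Meth vs. Tat-/Meth, and Trem2 (0.091) and Tmem119 (0.34) in the interaction. Over all probes, Tat+/Sal vs. Tat-/Sal gave 223 calls, 0 with normexp or slide as a fixed block, 4 with median scaling, 586 with the replicate block and 2991 with slide as a random block. Tat-/Meth vs. Tat-/Sal gave 15840, 29314 with normexp and 3651 above 2-fold. Slide as a fixed block could be fitted only without Tat-/Meth.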
